A study of Homo sapiens with 6 samples.

Results

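The mitochondrial ribosomal protein genes were taken as the genes of the series' table whose names begin with MRPL or MRPS followed by a number. Of the names with this start, 4 were left out because they denote pseudogenes or antisense transcripts (MRPL42P5, MRPL45P2, MRPS31P5 and MRPL23-AS1). This left 76 genes of 24253 genes in the assemblies, of which 47 carry large subunit names (MRPL) and 29 carry small subunit names (MRPS). Names alone chose them and no measured value did.

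The series compared HEK293 cells, a human line of embryonic kidney origin, with and without heat shock, and asked which transcripts differ soon after the stress. An aliquot of cells taken at passage was held at 45°C for 30 minutes in a water bath, and the control cells, from the same kind of culture at 37°C, were left untreated. Each group had 3 libraries of total RNA depleted of ribosomal RNA, so all 6 libraries came from 1 cell line. Nothing states that the libraries of a group came from separate cultures other than the word triplicate, so p-values measure the spread between these libraries, which may be technical.

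Mitochondria carry their own ribosome, which translates the few proteins encoded in mitochondrial DNA, all of them parts of the respiratory chain and the ATP synthase. Its RNAs come from the mitochondrial genome, while all its proteins are encoded in the nucleus, translated in the cytosol and imported. Some of these proteins have relatives in ribosomes of every domain of life, some only in bacteria, and some are found only in mitochondria. By the ribosomal protein nomenclature given for these genes in RefSeq, 26 of the 76 are of the universal class, 18 of the bacterial class and 29 of the mitochondria-specific class, and 3 (MRPS24, MRPS28 and MRPS36) had no such name in the table. In that nomenclature MRPS18A (mL66) and MRPS30 (mL65) are large subunit proteins in spite of their gene names. MRPS36 now has the symbol KGD4 and is known as a component of the 2-oxoglutarate dehydrogenase complex.

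The deposited value was the FPKM of each transcript, meaning fragments per length of transcript and per number of mapped fragments, and a gene's value was the sum over its transcripts. The libraries differed by a factor that abundant genes shared. This factor, a median of ratios over the 982 genes above 10 FPKM in every library (32 of them mitochondrial ribosomal protein genes), was 0.948, 0.439 and 0.967 in controls 1 to 3 and 2.15, 2.34 and 0.492 in heat shock libraries 1 to 3. Values divided by this common factor are called scaled FPKM here. The libraries also differed in how many single-exon transcripts without a strand they listed, with 141632 to 194489 in controls 1 and 2 and heat shock 3 and 17304 to 45600 in the others. Relative depth, estimated from the coverage per FPKM, spanned 1 to 2.03. Of 6 markers of HEK293 cells all passed the filter on low values, among them VIM, with scaled FPKM of 194 to 397, whereas PAX2 lay between 0.137 and 8.66. The summed scaled FPKM of 6 markers of other cell types was 6.14 to 21.3 in the controls against 2.77 to 17.9 in the heat shock libraries, with ALB and HBB between 0 and 0.319. As a check of the treatment, the scaled FPKM of DNAJB1, a chaperone gene induced by heat shock factor, was 7.72, 11.03 and 9.49 in the controls against 56.1, 49.6 and 69.0 in the heat shock libraries.

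As deposited, the mitochondrial ribosomal protein genes had higher FPKM in heat shock libraries 1 and 2 than in any control, and in heat shock library 3 they were as low as in control 2. Their summed FPKM was 2423, 1081 and 2523 in controls 1 to 3, and 5686, 5970 and 1215 in heat shock libraries 1 to 3. The means were 2009 ± 805 and 4290 ± 2667 (SD, n = 3 each), and the groups overlapped because heat shock library 3 lay below controls 1 and 3. The median gene had 20.0, 9.51 and 19.0 FPKM in the controls against 47.0, 47.3 and 9.77 FPKM in the heat shock libraries. This order held for most genes of the list, since 62 of the 75 that passed a filter of 1 FPKM on the mean (82.7%) had heat shock libraries 1 and 2 as their highest and control 2 and heat shock 3 as their lowest, against 40.4% of all 13033 genes that passed it. The share among abundant genes alone was not computed, so the order is not read as particular to the list. Many cytosolic ribosomal protein genes, such as FAU, had the same order, and some, such as RPS12, did not.

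The test across all genes called none of the 75 in either direction. On the log2(FPKM + 1) scale, every one of the 75 had a positive fold change, from 0.26 to 2.09, with a median of 0.81 beside a median of 0.45 over all genes tested. Among genes whose mean reached 10 FPKM the medians were alike, 0.81 for the 66 of the list and 0.82 for all 2914. With limma and Benjamini-Hochberg adjustment over all genes, the adjusted p of the 75 lay between 0.711 and 0.849, and 0.023% of all genes were called. At an unadjusted p below 0.05, 1 of the 75 (1.33%) was higher, MRPS31, against 2.07% of all genes, and none was lower. All heat shock libraries exceeded all controls for 1 gene, again MRPS31, where 3.71% of all genes did so, and all lay below the controls for 0 genes, where 2.26% of all genes did. The typical residual SD of a gene of the list, 0.962 on the log2 scale, exceeded its typical fold change, and with this spread a gene that misses the threshold is not shown to be unchanged. FPKM are relative to the RNA of a whole library, and in bulk RNA fewer cells of a type and less RNA per cell cannot be told apart.

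How large this difference appeared depended on single libraries. The median fold change was 0.98, 0.47 and 1.00 without controls 1, 2 and 3, and 0.48 and 0.45 without heat shock libraries 1 and 2. Without heat shock library 3 the median was 1.51 (0.83 over all genes). In that fit 56 of the 75 genes (74.7%) were higher by limma at an unadjusted p below 0.05, against 39.6% of all genes. The share among abundant genes alone was not computed, so this count is not read as particular to the list. None of the 75 passed the adjusted threshold by limma, against 0.0767% of all genes. The kind of library moved with the result as well. Among the libraries with many single-exon transcripts (controls 1 and 2 against heat shock 3), the median difference was −0.38, with 9 genes positive and 66 negative. Among the libraries with few (control 3 against heat shock 1 and 2), it was 1.14, with 74 positive and 1 negative. With the library class as a term of the fit the median was 0.38 (0.21 over all genes), with 70 positive and 5 negative.

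**Figure D1:**
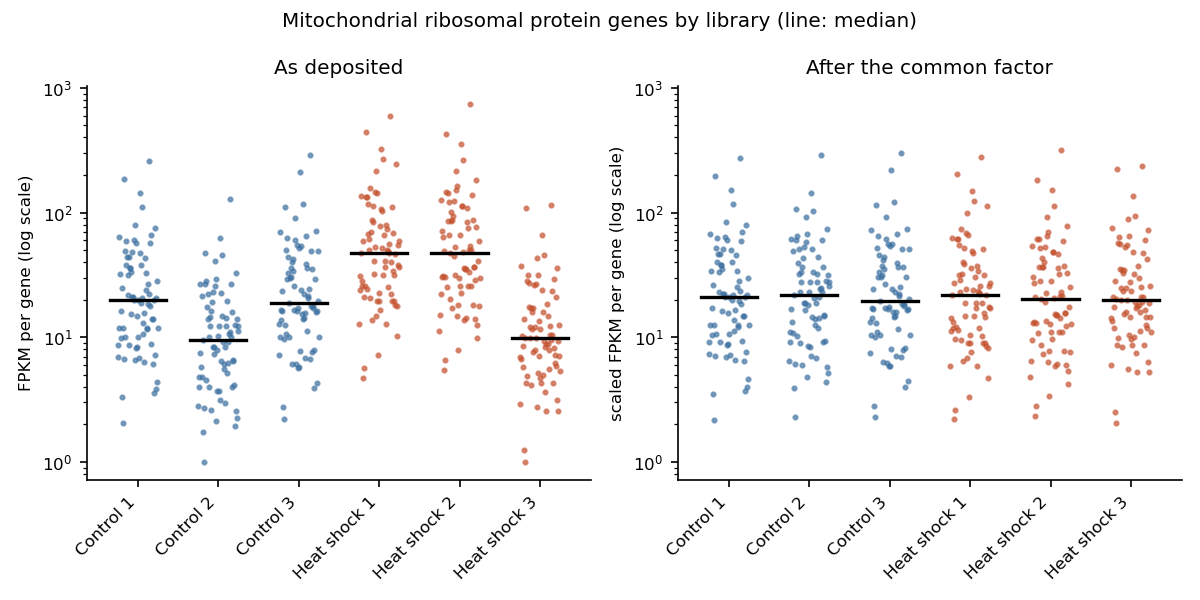
FPKM (log axis) of the 75 genes tested in each of the 6 libraries, as deposited on the left and divided by the common factor on the right. Points are genes, black lines are medians, blue is control and red is heat shock, and the listed 0 of MRPS6 in control 2 is not drawn. As deposited the medians run from 9.51 to 47.3, and after scaling they lie at nearly the same height in every library.

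Once the library factor was divided out, the summed level of the mitochondrial ribosomal protein mRNAs was nearly the same in both groups. The factor was taken from abundant genes, so a shift that abundant mRNAs share would be divided out with it. Scaled values therefore describe these genes relative to other abundant genes only. The summed scaled FPKM was 2557, 2461 and 2609 in the controls against 2639, 2549 and 2468 in the heat shock libraries, with means of 2542 ± 74.9 and 2552 ± 85.5 (SD, n = 3 each). Heat shock libraries 2 and 3 lay within the range of the controls and heat shock library 1 just above it. Of the 75 genes, 35 had a positive and 40 a negative fold change, with a median of −0.03 (−0.21 over all genes) and an interquartile range from −0.18 to 0.13. Of these fold changes, 71 were within 0.5 of 0 on the log2 scale. The extremes were −0.57 for MRPL44 and 1.63 for MRPS6, a gene listed at 0 in 1 library. By limma no gene of the list and 0% of all genes passed the adjusted threshold, and the adjusted p of the 75 lay between 0.912 and 0.999. At an unadjusted p below 0.05, 1 of 75 (1.33%) was higher, MRPS31, against 0.737% of all genes, and none was lower, against 2.49% of all genes. A factor computed without the mitochondrial ribosomal protein genes gave the same median of −0.03. The difference between library classes also shrank on this scale, with medians of −0.05 and −0.01 in the classes with many and few single-exon transcripts.

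The genes also varied little around this common level. After scaling, the median residual SD was 0.196 on the log2 scale for the genes of the list and 0.527 for all genes tested. Among genes whose mean reached 10 FPKM it was 0.222 for the 66 of the list and 0.328 for all 2914. Small variation was not particular to the list. Many cytosolic ribosomal protein genes had scaled standard errors below the median of the list (0.195), and some, such as RPS12 (0.571), had larger ones. The highest library exceeded the lowest by 1.56-fold in the median gene after scaling, and by 5.49-fold as deposited. In 35 genes it was less than 1.5-fold. The narrowest was MRPL23, which encodes uL23m, a protein beside the exit of the peptide tunnel. Its scaled FPKM was 62.0, 64.8 and 64.4 in the controls against 61.8, 61.3 and 63.9 in the heat shock libraries, a 1.06-fold span. MRPS18A followed with a 1.10-fold span and MRPS18C, which encodes bS18m of the small subunit platform, with 1.14-fold. The span was over 3-fold for MRPL45, MRPL53, MRPS10, MRPS16, MRPS22, MRPS31 and MRPS35. MRPS6 was listed at 0 in control 2, so no span was taken over its 6 libraries, and over the other 5 it was 5.54-fold.

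The genes differed far more from each other than any of them differed between groups. MRPS21, which encodes the small subunit protein bS21m, had the highest scaled mean, 282 FPKM, and MRPL19, which encodes bL19m of the large subunit, the lowest above 0, 2.37 FPKM, a 119-fold ratio. The median was 20.7 scaled FPKM, with quartiles of 11.5 and 36.7, where the median over all genes tested was 3.82. FPKM is a level per length of transcript and can be set side by side between genes, but the sum includes short assembled transcripts, and the order depends on them.

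At the top stood 5 genes. For MRPS21 the deposited FPKM was 258, 128 and 288 in the controls against 599, 743 and 115 in the heat shock libraries, and the scaled values of 272, 291, 298, 278, 317 and 234 overlapped between groups. MRPL20, which encodes bL20m, a large subunit protein that binds ribosomal RNA early in assembly in bacteria, had a scaled mean of 172. MRPL51 (mL51) and MRPL55 (bL31m) had scaled means of 158 and 112. MRPL41 (mL41) had 91.3, with scaled values from 83.7 to 99.3 in the 6 libraries. MRPL51 and MRPL20 overlapped in their library values, and so did MRPL55 and MRPL20, while MRPS21 was above every other gene of the list in each of the 6 libraries. With annotated transcripts alone the same 5 genes had the highest scaled means and MRPS21 was again the highest in each library (mean 282), but MRPL55 (109), MRPL51 (106) and MRPL41 (91.3) stood above MRPL20 (71.8). In all, 6 genes were among the 10 highest of the list in every library and 14 were so in at least 1.

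At the bottom, MRPL19 had 2.04, 1.00 and 2.22 FPKM in the controls against 5.66, 6.54 and 1.01 in the heat shock libraries as deposited. MRPL17, which encodes bL17m near the tunnel exit, had a scaled mean of 2.89, and MRPS36 one of 4.63. The 6 scaled values of MRPL17 (2.20 to 3.93) and MRPL19 (2.04 to 2.79) overlapped. By deposited means, MRPL1, which encodes uL1m of the L1 stalk, and MRPL45, which encodes mL45 near the inner membrane, were also among the 5 lowest above 0, at 6.33 and 7.40 scaled FPKM. With annotated transcripts alone MRPL45 was the lowest, at 1.37, below MRPL19 at 2.14.

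**Figure D2:**
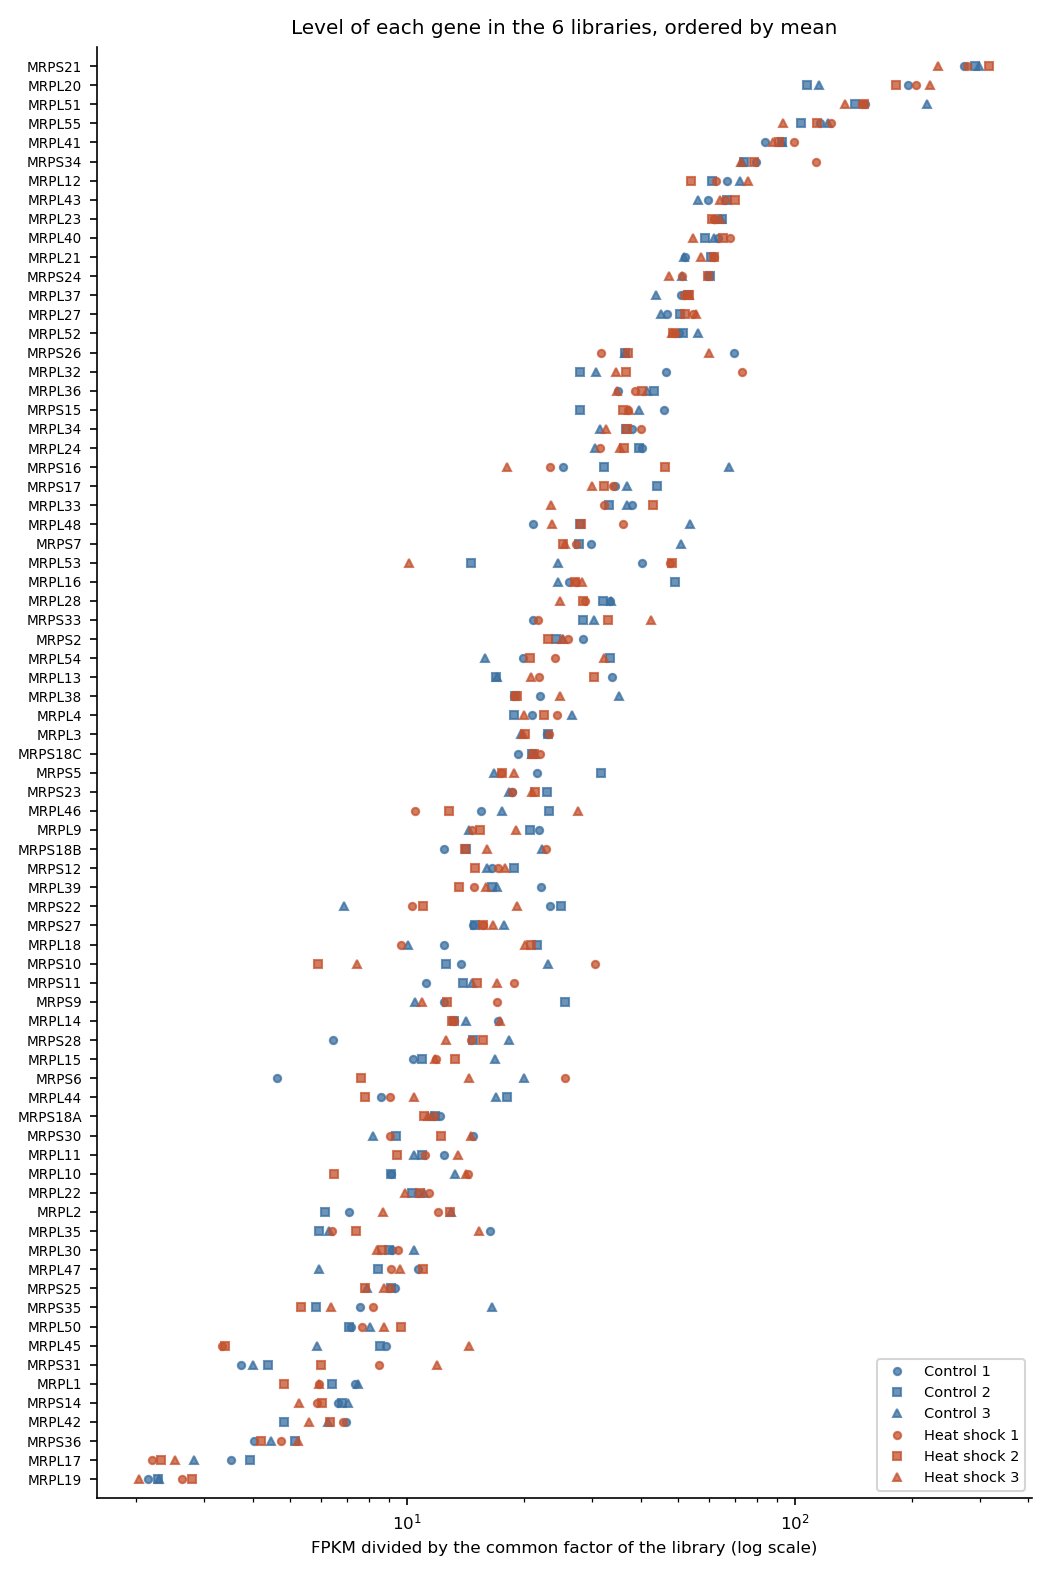
Scaled FPKM (log axis) of each of the 75 genes, ordered by the mean over the libraries from MRPL19 (2.37) to MRPS21 (282). Blue symbols are the 3 controls and red symbols the 3 heat shock libraries, and for most genes red and blue symbols overlap within a span far below the range across genes.

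The genes named for either subunit, and the protein classes, had close median fold changes. The 46 tested genes with MRPL names had a median fold change of 0.81 as deposited and −0.005 after scaling, and the 29 with MRPS names 0.79 and −0.04. The MRPS names include MRPS18A, MRPS30 and MRPS36, which are not small subunit proteins in the naming given above. The summed FPKM of genes with MRPL names over that of genes with MRPS names was 1.84, 1.69 and 1.68 in the controls against 1.83, 1.79 and 1.90 in the heat shock libraries, ranges that overlapped. On the scaled values, 9 of 26 universal, 9 of 18 bacterial and 15 of 28 mitochondria-specific genes were positive, with medians of −0.04, −0.01 and 0.02. Their levels were described by medians of 15.7, 35.7 and 19.0 scaled FPKM. The range within each class, from 6.28 to 63.0 for the universal and from 2.37 to 282 for the bacterial genes, was wide beside these medians.

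Levels are next given for genes of 4 sites of the ribosome, chosen after their values were seen. In the stalk that recruits translation factors, MRPL12 (bL12m) had a scaled mean of 65.3, MRPL10 (uL10m), which anchors it, 11.1, and MRPL11 (uL11m) at its base 11.3. Their scaled fold changes were −0.07, 0.09 and 0.002. Around the tunnel exit, MRPL23 was at 63.0, MRPL24 (uL24m) at 35.6, MRPL22 (uL22m) at 10.7 and MRPL17 at 2.89 scaled FPKM. Near the decoding centre, MRPS12 (uS12m) was at 16.9 scaled FPKM, with a fold change of −0.04. Near the peptidyl transferase centre, MRPL2 (uL2m) was at 9.98 and MRPL3 (uL3m) at 21.5, with fold changes of 0.37 and −0.05. None of these genes passed the test.

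Each gene was next expressed as its share of the summed FPKM of the list, a quantity that does not depend on any library factor. By this measure all heat shock libraries lay above all controls for 2 of the 75 genes (2.67%), MRPS31 and MRPS11, where 1.76% of all genes did so when divided by the same sum. All lay below the controls for 8 genes (10.7%), MRPL1, MRPL17, MRPL28, MRPL39, MRPL52, MRPS7, MRPS14 and MRPS17, against 5.02% of all genes. None of these genes passed the limma test on the scaled values, where their adjusted p was 0.912.

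MRPS31 encodes mS31, a mitochondria-specific protein of the small subunit head. Its deposited FPKM was 3.54, 1.93 and 3.89 in the controls against 18.3, 14.0 and 5.87 in the heat shock libraries, without overlap. Its scaled FPKM was 3.74, 4.39 and 4.02 against 8.49, 5.99 and 11.9, also without overlap. The log2 fold change was 1.64 (SE 0.612, limma adjusted p = 0.711) as deposited and 0.91 (SE 0.276, limma adjusted p = 0.912) after scaling. The gene lies on hg19 chromosome 13 from 41303432 to 41345347 on the minus strand, with 7 exons. In heat shock library 1, 15.2 of its 18.3 FPKM came from an assembled transcript of 2 exons and 589 bases, and in heat shock library 3, 4.41 of 5.87 FPKM came from one of 532 bases. Its annotated transcript NM_005830 alone had 2.57, 1.93 and 3.89 FPKM in the controls against 3.05, 14.0 and 1.45 in the heat shock libraries, which overlapped. With annotated transcripts alone the scaled fold change was −0.20. MRPS31 also has pseudogene copies in the genome, so the split of its reads is uncertain.

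MRPS11 encodes uS11m of the small subunit platform. Its share of the summed FPKM was 0.437%, 0.565% and 0.565% in the controls against 0.715%, 0.596% and 0.693% in the heat shock libraries. The scaled fold change was 0.34 (SE 0.170, limma adjusted p = 0.912). Assembled transcripts made up 18.7% to 62.5% of its FPKM in the controls against 69.2% to 71.9% in the heat shock libraries. From annotated transcripts alone the scaled fold change was −0.51, with all heat shock libraries below all controls.

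Among the 8 genes with lower shares, 3 also lay below all controls with annotated transcripts alone, and the fold change turned positive for 4. MRPS17, which encodes uS17m, had a scaled fold change of −0.25 that became −0.05 with overlapping groups. MRPS14 (uS14m, a protein of the small subunit head) had shares of 0.259%, 0.277% and 0.270% in the controls against 0.223%, 0.237% and 0.213% in the heat shock libraries, and a scaled fold change of −0.22 (SE 0.175). MRPL17 had 0.137%, 0.160% and 0.109% against 0.0834%, 0.0910% and 0.102%, with a scaled fold change of −0.40 (SE 0.237). MRPL52, which encodes mL52, had 1.97%, 2.09% and 2.16% against 1.86%, 1.90% and 1.95%, the closest of the separations described here. These 3 genes were also lower in every heat shock library when annotated transcripts alone were scaled. MRPL28 (bL28m) had 1.31%, 1.30% and 1.29% against 1.09%, 1.11% and 1.00%, but its fold change of −0.27 became 0.26 with annotated transcripts alone. MRPL1, MRPL39 and MRPS7 also turned positive, at 0.73, 1.21 and 1.49. In control 3 the annotated transcripts of MRPL1 and of MRPS7 (uS7m, a protein of the small subunit head that contacts mRNA) were listed at 0, as was that of MRPL39 in control 1.

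Many other genes depended on the assembled transcripts as well. Annotated transcripts gave 77.9%, 81.9% and 68.9% of the summed FPKM of the list in the controls against 76.4%, 81.9% and 73.5% in the heat shock libraries. In 37 of the 75 genes the scaled fold change had opposite signs with and without the assembled transcripts. In 15 genes the fold changes were more than 1 apart on the log2 scale. With annotated transcripts alone they ran from −1.75 for MRPS28 to 1.67 for MRPS27, and 20 of 450 gene and library values were listed at 0, in 15 genes. The median with annotated transcripts alone was 0.13 after scaling (−0.002 over all genes).

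**Figure D3:**
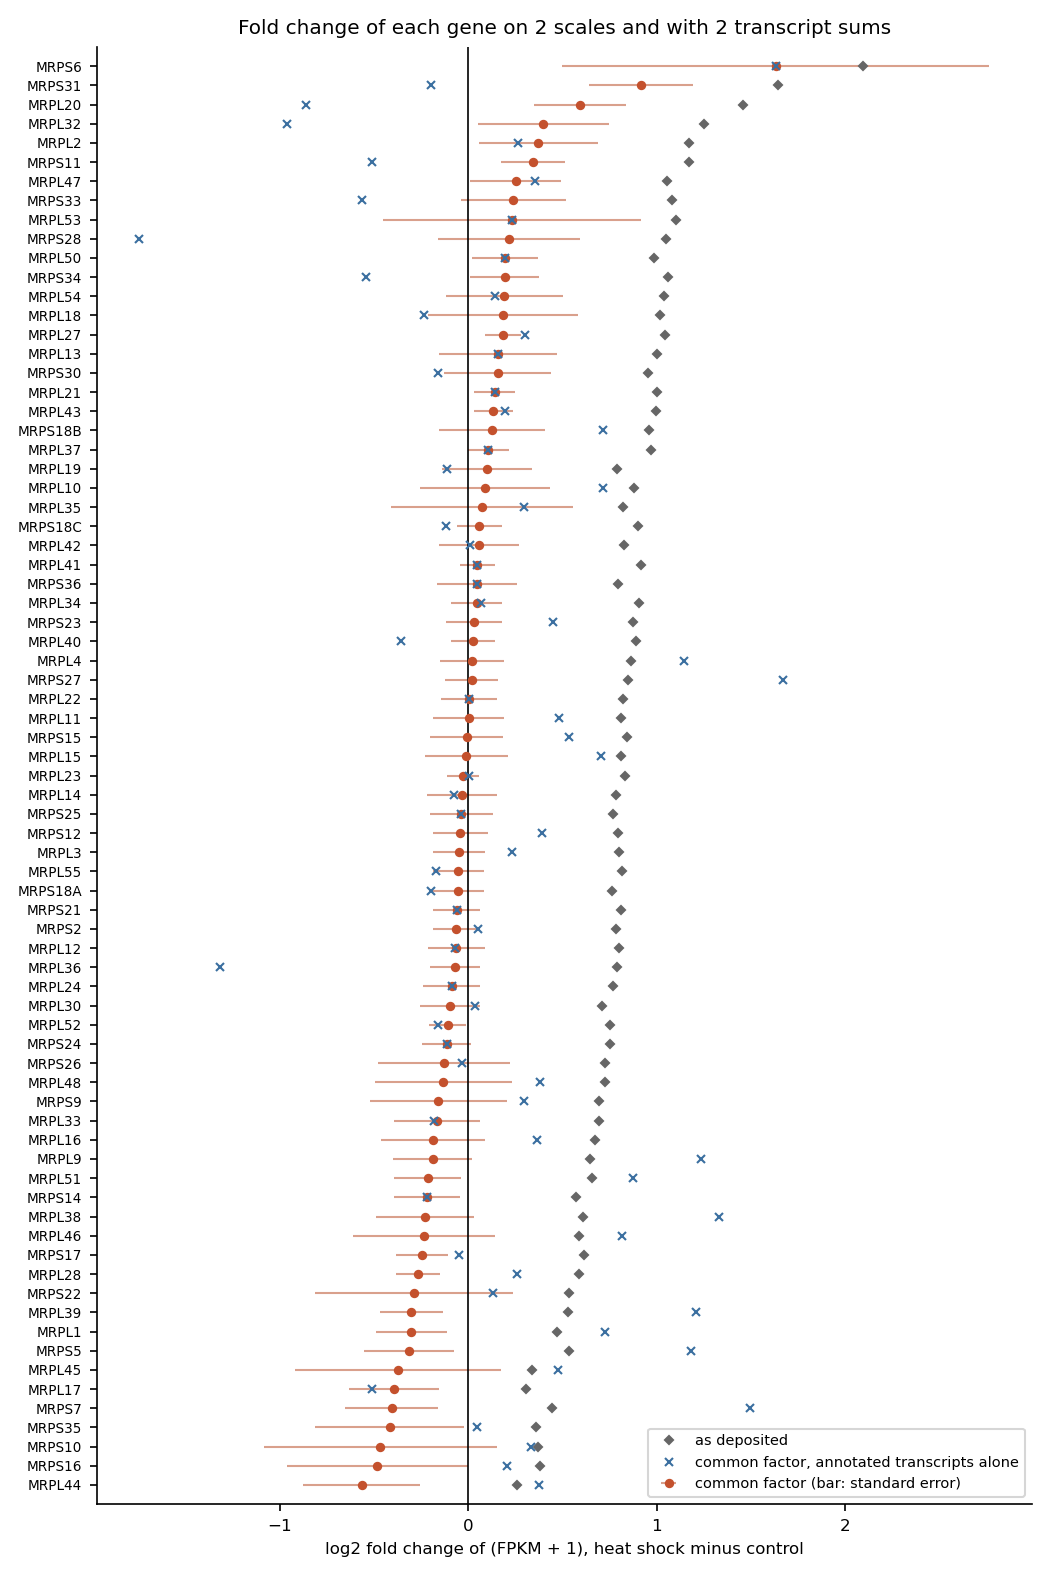
Log2 fold change of (FPKM + 1), heat shock minus control, of each of the 75 genes, ordered by the scaled value. Red circles with standard errors are scaled values, grey diamonds are deposited values and blue crosses are scaled values of annotated transcripts alone, hidden where they equal the circle. All diamonds lie right of 0, from 0.26 to 2.09, while circles lie on both sides, 35 right and 40 left.

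The largest scaled fold changes belonged to genes with uneven libraries. MRPS6 (bS6m), at the edge of the small subunit platform, had 4.37 and 19.4 FPKM in controls 1 and 3, was listed at 0 in control 2, and had 55.1, 17.8 and 7.10 FPKM after heat shock. In every library its transcripts stood in 1 group with SLC5A3, whose locus it shares, so assembled transcripts there could not be given to either gene. MRPL20 had 186, 47.3 and 111 FPKM in the controls against 442, 428 and 109.6 in the heat shock libraries. Its scaled values were 196, 108 and 115 against 205, 183 and 223, and the fold change was 0.59 (SE 0.244, limma adjusted p = 0.912). In control 1 and all 3 heat shock libraries, 69.8% to 78.5% of its FPKM came from a short assembled transcript at its 3′ end, which controls 2 and 3 did not list. The annotated transcript alone gave a scaled fold change of −0.86. MRPL32 (bL32m) and MRPL2 followed with 0.40 (SE 0.35) and 0.37 (SE 0.32). For MRPL32 the annotated transcript alone gave −0.96, with a listed 0 in heat shock library 1. MRPL2 stood in 1 group with CUL7 in controls 1 and 2 and heat shock library 3, so assembled transcripts were not added to it there.

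At the other end, MRPL44, whose protein mL44 resembles ribonuclease III, had 8.14, 7.95 and 16.4 FPKM in the controls against 19.5, 18.3 and 5.14 in the heat shock libraries. Its scaled values of 8.59, 18.1 and 16.9 against 9.04, 7.80 and 10.4 overlapped. The genes MRPS16 (bS16m), MRPS10 (uS10m) and MRPS35 (mS35) of the small subunit had scaled fold changes of −0.48 (SE 0.48), −0.47 (SE 0.62) and −0.42 (SE 0.40). In MRPS10 heat shock library 1 was the highest of all libraries, at 30.5 scaled FPKM, and heat shock library 2 the lowest, at 5.91, so the spread within a group exceeded the difference between groups. MRPS7 had −0.41 (SE 0.25). None of these genes stayed negative with annotated transcripts alone, where the scaled fold change of MRPL44 was 0.38. Those of MRPS16, MRPS10, MRPS35 and MRPS7 were then positive as well.

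MRPL49 was listed at 0 in all 6 libraries. It lies on hg19 chromosome 11 from 64889655 to 64894841 on the plus strand and overlaps SYVN1, on the other strand, which was also listed at 0 in all 6 libraries. FAU, a cytosolic ribosomal protein gene that starts 44 bases away in the opposite direction, had 944, 445 and 941 FPKM in the controls against 2158, 2345 and 518 in the heat shock libraries. In a file without read counts a listed 0 can be an estimate that failed, so no level was taken for MRPL49. For 9 genes the merged locus of the authors' table carries a further gene name, among them MRPL12 (HGS), MRPL24 (HDGF), MRPL53 (CCDC142), MRPL55 (C1orf35) and MRPS24 (URGCP), and the values of MRPL53, MRPS24 and MRPS6 rested on transcripts grouped with another gene in all 6 libraries. MRPL53 had 38.2, 6.42 and 23.7 FPKM in the controls against 103, 113 and 4.99 in the heat shock libraries, and its scaled values spanned 4.76-fold. MRPS24 had scaled values from 47.4 to 60.5.

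MRPL18 was described apart because of what is known of its protein in heat shock. It encodes uL18m of the large subunit, and in stressed cells a shorter form made from a downstream start codon is known to stay in the cytosol, join cytosolic ribosomes and aid the translation of heat shock protein mRNAs. That switch is one of translation, and mRNA levels do not measure it. The gene lies on hg19 chromosome 6 from 160211492 to 160219461 on the plus strand, with 4 exons.

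The MRPL18 mRNA values of the 2 groups overlapped. Its FPKM was 11.8, 9.51 and 9.74 in the controls against 20.8, 48.8 and 9.92 in the heat shock libraries, so heat shock library 3 lay within the controls. The log2 fold change was 1.01 (SE 0.777, limma adjusted p = 0.711), and a two-sided exact permutation test over the libraries gave p = 0.2, where 0.1 is the smallest it can give with 3 against 3. Without heat shock library 2 the fold change was 0.45, and without heat shock library 3 it was 1.55. The scaled values were 12.4, 21.6 and 10.1 against 9.68, 20.8 and 20.1, a fold change of 0.18 (SE 0.398) with an exact permutation p of 1. Its share of the summed FPKM of the list was 0.486%, 0.879% and 0.386% in the controls against 0.367%, 0.817% and 0.816% in the heat shock libraries. Control 2 and heat shock libraries 2 and 3 were thus high and the other 3 low, which does not follow the treatment.

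Assembled transcripts carried much of the MRPL18 value. They made up 47.7%, 72.0% and 53.2% of its FPKM in the controls against 48.9%, 77.8% and 77.4% in the heat shock libraries. In heat shock library 2, 38.0 of 48.8 FPKM came from assembled transcripts. The annotated transcript NM_014161 alone had 6.16, 2.66 and 4.56 FPKM in the controls against 10.6, 10.8 and 2.24 in the heat shock libraries, which overlapped (exact permutation p = 0.6). After scaling, the annotated transcript had a fold change of −0.24, with an exact permutation p of 0.2.

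**Figure D4:**
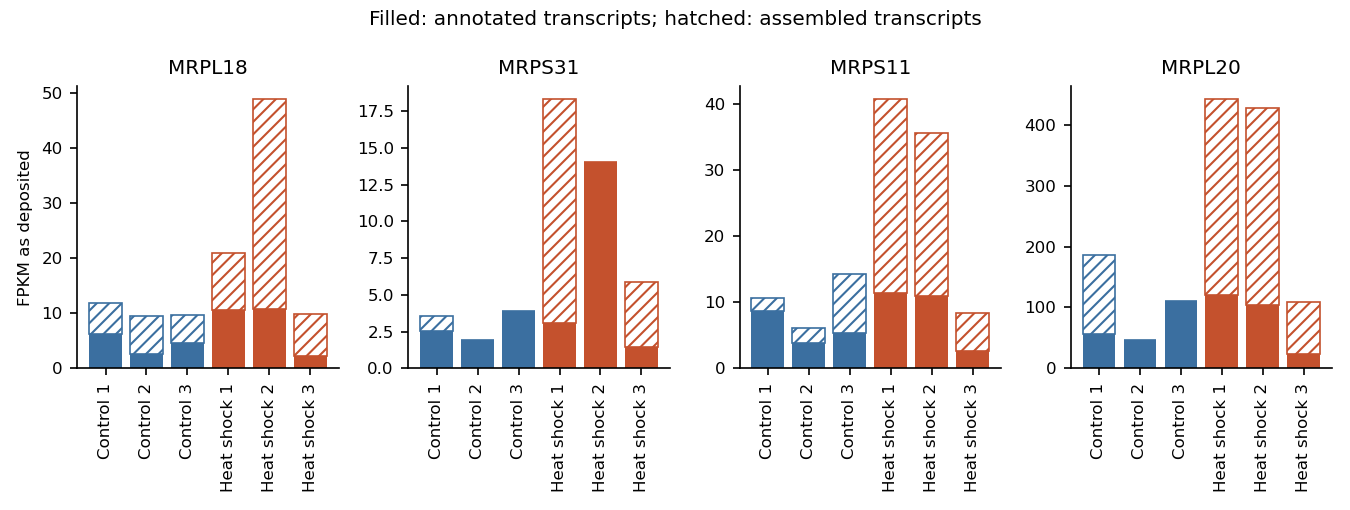
FPKM as deposited of MRPL18, MRPS31, MRPS11 and MRPL20 in each library, controls in blue and heat shock in red. Filled parts are annotated transcripts and hatched parts assembled transcripts, and the hatched part is over 69% of the bar in every heat shock library of MRPS11 and MRPL20.

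Other genes of mitochondrial translation had median fold changes near those of the ribosomal protein genes, and the test called none of them. The 7 mitoribosome subunits under other names had a median fold change of 0.77 as deposited and −0.05 after scaling. Among them AURKAIP1 (mS38) had scaled FPKM of 100.1, 95.6 and 101.8 in the controls against 102, 97.6 and 103 in the heat shock libraries, and DAP3 (mS29), a GTP-binding protein of the small subunit, had 10.6 to 13.2 in the controls and at most 20.0 in a heat shock library. Their summed FPKM divided by that of the 76 genes was 0.0949 to 0.0978 in the controls against 0.0904 to 0.101 in the heat shock libraries. The 15 mitochondrial translation factors had medians of 0.73 and −0.06, with SLIRP, an RNA-binding partner of LRPPRC, the highest, at 230.4 to 264 scaled FPKM over all libraries. TUFM, the mitochondrial elongation factor Tu, had scaled FPKM of 63.2, 16.1 and 55.0 in the controls against 58.9, 57.3 and 62.6 in the heat shock libraries, with control 2 alone low.

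Of 22 genes for mitoribosome assembly and rRNA modification, 21 were tested, with medians of 0.55 as deposited and −0.22 after scaling, the latter beside −0.21 over all genes. None passed the adjusted threshold. At an unadjusted p below 0.05 on the scaled values 2 of the 21 were lower, against 2.49% of all genes. These were DHX30, an RNA helicase, and NOA1, a GTPase. NOA1 had scaled FPKM of 10.7, 15.3 and 17.7 in the controls against 2.75, 3.44 and 7.83 in the heat shock libraries, without overlap (log2 fold change −1.53, limma adjusted p = 0.912). DHX30 had 40.1, 17.0 and 76.4 against 11.8, 9.06 and 3.94, also without overlap. Values from annotated transcripts alone are not given for these 2 genes. The 5 genes of mitochondrial transcription had medians of 0.54 and −0.25, and TFAM, which packages and activates mitochondrial DNA, had 5.28 to 6.10 scaled FPKM in the controls against 4.94 to 5.74 in the heat shock libraries.

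Cytosolic ribosomal protein genes and heat shock genes were set beside the list as points of reference. Of 81 cytosolic ribosomal protein genes 79 were tested, with medians of 0.92 as deposited and 0.05 after scaling. Their summed FPKM was 33.3 to 38.1 times that of the mitochondrial list in the controls against 33.9 to 35.6 times in the heat shock libraries, ranges that overlapped. Of 12 heat shock genes 11 were tested, with medians of 1.198 and 0.35. Their summed FPKM divided by that of the mitochondrial list was 0.213, 0.171 and 0.229 in the controls against 0.280, 0.272 and 0.281 in the heat shock libraries, without overlap. HSPA1B, an inducible chaperone of the HSP70 family, had scaled FPKM of 9.11, 15.0 and 9.87 against 40.2, 42.7 and 46.6. Even so, none of the 11 passed the adjusted threshold by limma on either scale. The lowest adjusted p by limma was 0.133, for DNAJB1 after scaling. At an unadjusted p below 0.05 on that scale 5 were higher, against 0.737% of all genes.

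**Figure D5:**
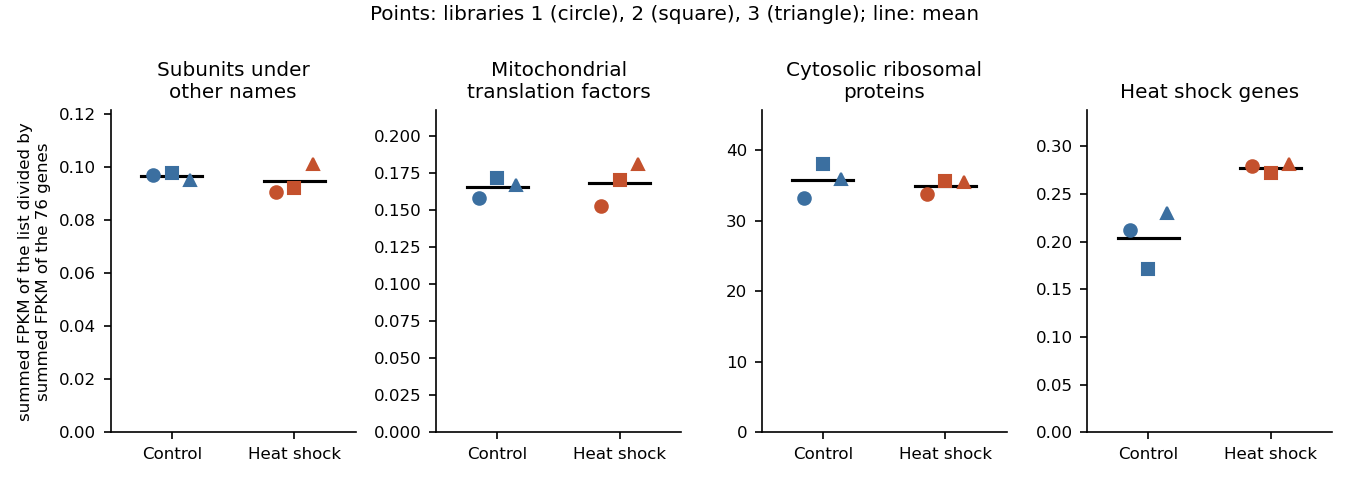
Summed FPKM of 4 gene lists divided by the summed FPKM of the 76 mitochondrial ribosomal protein genes, per library, with controls in blue and heat shock in red and the group mean as a line. The ratios overlap between groups for subunits under other names, translation factors and cytosolic ribosomal proteins, and for heat shock genes they run from 0.171 to 0.229 in the controls and from 0.272 to 0.281 after heat shock.

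The sequence before the starts of these genes was also compared with that of all genes, expressed here or not. Whether it bears on their levels was not tested. RefSeq promoter windows (GRCh38.p14, 250 bases before to 50 after the transcript start, with +1 as the first transcribed base) were matched for 67 of the 76 genes and set beside 27305 promoters of all genes. The 9 without an entry were MRPL2, MRPL10, MRPL13, MRPL15, MRPL21, MRPL23, MRPL35, MRPS28 and MRPS36. The letters of 4 motifs were searched on both strands. The motif CCGGAAG, bound by ETS factors such as GABPA, was in 28 of the 67 (41.8%) and in 10.7% of all promoters. AAGATGGC, part of the motif of YY1, was in 20 (29.9%) and in 3.03% of all. Both were in 8 (11.9%, against 0.597%), and at least 1 of them in 40 (59.7%, against 13.1%). The NRF1 motif was in 1, MRPL17 (1.49%, against 1.36%). The heat shock element, searched as GAANNTTC or TTCNNGAA, was in 12 (17.9%, against 13.7%), and in MRPL48, MRPL54 and MRPS18A it overlapped an ETS match.

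The 150 bases before the start of 3 of the most abundant genes are shown because each holds ETS matches, which are in capitals. They lie at chr12:6493263-6493412 (minus strand), chr1:1407294-1407443 (minus strand) and chr1:150293711-150293860 (plus strand) of GRCh38.p14.
MRPL51: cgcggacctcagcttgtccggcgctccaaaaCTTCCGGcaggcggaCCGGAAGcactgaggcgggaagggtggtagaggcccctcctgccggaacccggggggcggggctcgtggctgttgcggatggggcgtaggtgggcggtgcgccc
MRPL20: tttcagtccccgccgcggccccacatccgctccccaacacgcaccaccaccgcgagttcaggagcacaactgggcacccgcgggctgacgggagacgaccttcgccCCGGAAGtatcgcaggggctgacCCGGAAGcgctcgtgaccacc
MRPS21: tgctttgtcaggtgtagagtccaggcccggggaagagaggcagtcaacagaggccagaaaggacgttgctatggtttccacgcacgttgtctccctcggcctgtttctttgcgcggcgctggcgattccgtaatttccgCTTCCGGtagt

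MRPL51 held 2 such matches, from −119 to −113 and from −104 to −98, MRPL20 held 2, from −44 to −38 and from −21 to −15, and MRPS21 held 1 before the start, from −11 to −5, and 1 after it. Of the 28 genes with an ETS match, 22 had 1 before the start. The YY1 match lay elsewhere, inside the transcript in 15 of 20 genes. Short stretches of 24 bases around it (in capitals) are shown for 4 genes, at chr1:1407263-1407286 (minus), chr12:6493226-6493249 (minus), chr7:43869483-43869506 (minus) and chr17:75261890-75261913 (plus), beside the heat shock element match of MRPL18 at chr6:159789818-159789841 (plus).
MRPL20: acccgggcAAGATGGCagcggcgc
MRPL51: taaggcccAAGATGGCtgtcttcg
MRPS24: cttggcccAAGATGGCggcctccg
MRPS7: ggccagccAAGATGGCtgcccccg
MRPL18: aagaggttGAACCTTCgcctcaaa

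In these 4 genes the YY1 match began between +16 and +22. The heat shock element match of MRPL18 lay at +15 to +22, inside its transcript. A match describes letters and not binding, and no binding was measured. MRPS31, with the largest fold change of a gene that was above 0 in all libraries, held an ETS match and no heat shock element match in its window.

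Many of these genes share a start region with a neighbour. An annotated coding gene on the other strand started within 1 kb upstream, or overlapped by up to 100 bases, for 23 of 75 genes (30.7%), against 1342 of 11758 coding genes tested (11.4%). The partners included TWNK, the mitochondrial DNA helicase, 21 bases from MRPL43, and NDUFB5, a subunit of respiratory complex I, 141 bases from MRPL47. In 1 pair, MRPL46 and MRPS11, both partners encode mitochondrial ribosomal proteins, 51 bases apart on chromosome 15. Their scaled fold changes were −0.24 (SE 0.38) and 0.34 (SE 0.17). TCP1, a subunit of the cytosolic chaperonin, started 757 bases from MRPL18 and had 51.6, 22.8 and 54.1 FPKM in the controls against 120.3, 125 and 26.1 in the heat shock libraries.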

How the data were processed

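Total RNA depleted of ribosomal RNA was sequenced from 3 control and 3 heat shocked HEK293 libraries. Per the labels and the study's methods, the authors ran quality checks in FastQC 0.10.1 and trimming in Trimmomatic 0.3.0 before TopHat2 mapped the reads to hg19, and each library was then assembled on its own by Cufflinks 2.0.2. The deposited FPKM of each annotated or assembled transcript, with no normalization between libraries stated, came from these assemblies. The authors' table of pooled group FPKM, made with Cuffdiff, was used for gene names only, and its columns of fold changes, p-values and increases were not used. The files hold no read counts, so depth is known only relative to other libraries through the coverage per FPKM.

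A gene's FPKM was the sum over its annotated transcripts and the assembled transcripts of groups that held annotated transcripts of this gene alone. For 43536 annotated transcripts the gene came from the RefSeq accession in 96.51%, from the assembly's own name in 617, and in 904 the accession itself stood for a gene. The kit is not stated to keep strand, so reads of overlapping genes on opposite strands cannot be told apart. Values were tested as log2(FPKM + 1) by limma 3.58.1 (R 4.3.3) for the 13033 genes whose mean reached 1 FPKM, with a variance trend and Benjamini-Hochberg adjustment over all of them, called at 0.05. Fold changes are on the log2(FPKM + 1) scale, which understates changes of low genes. MRPL18 was also tested by an exact permutation test (scipy 1.17.1). The fit was tested on simulated data, where it called no changed gene with the spread of the deposited values, and with the common factor it called only the larger changes and those in part, so the absence of calls says little about changes of moderate size. Alternatives were other scalings (median of ratios, the common factor, TPM, the sum of the list), a pseudocount of 0.1, other filters, annotated transcripts alone, a replicate block, a library class term and leaving out each library. The text names MRPL18, the 5 genes of highest and lowest mean FPKM, the 5 of highest and lowest scaled fold change, genes listed at 0, genes whose groups did not overlap, and up to 5 with a merged locus. Other genes (the stalk, tunnel and ribosomal centre proteins, the genes of narrowest and widest span, and neighbours) were named after their values were seen. The genes, lists and motifs were chosen with earlier results of these data known.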

Additional observations from a re-analysis of the deposited data

How the results depend on the processing

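No mitochondrial ribosomal protein gene passed the adjusted threshold in limma under any scaling, filter, pseudocount, transcript sum, block, class term or left-out library tried, and the same held for the 6 pathway lists. The median fold change depended on the scaling: 0.81 as deposited, 0.39 with a median of ratios over all genes, 0.38 with the library class term, 0.14 as TPM, −0.03 with the common factor and −0.04 divided by the sum of the list, while the other filters and the pseudocount of 0.1 left it between 0.81 and 0.84. Leaving out 1 library gave 0.45 to 1.51 as deposited and −0.04 to −0.01 with the common factor. At an unadjusted p below 0.05, 1 gene was higher, against 2.07% of all genes, and 0 lower as deposited. Higher genes numbered 0 with annotated transcripts alone, with or without the common factor, and 2 with the class term and the common factor. They numbered 0 to 56 when 1 library was left out, with 56 without heat shock 3, where 39.6% of all genes were higher. With the common factor and 1 library left out they numbered 0 to 3 (3 without control 3, 0 without heat shock 1). Lower genes numbered 1 with the sum of the list, 2 with the class term and the common factor, and 2 with annotated transcripts alone and the common factor. With the common factor, lower genes numbered 1 without control 1, control 3 or heat shock 1, and 2 without heat shock 3. Genes whose shares did not overlap numbered 4 to 9 above and 10 to 15 below when 1 library was left out, where fewer libraries make separation easier. For these counts, and the others here without one, the share over all genes is not given. They are therefore not read as a result about the list. With the class term and the common factor the median was −0.02. The class term with the common factor, annotated transcripts alone with the common factor, and the factor without these genes were chosen after seeing the data.

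The replicate numbers of the labels share only a number. Deviations of same-numbered libraries had correlations of 0.026, −0.327 and −0.378 over genes, and control 2 and control 3 each correlated best with another number. With the replicate block, 1 gene was higher and 0 lower at an unadjusted p below 0.05, the median stayed at 0.81, and no gene of the list passed the adjusted threshold.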
